A study of Homo sapiens with 4 samples.

Results

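Histone genes were followed on 4 Affymetrix arrays of NCI-H209 and Lu139, both established lines of human small cell lung cancer. Every probe set whose annotated symbol was a histone gene was taken, which gave 110 of the 54675 probe sets on the array. Of these, 81 were annotated to exactly 1 gene and measured 57 histone genes, out of 19775 genes with a value. The other 29 were annotated to several histone genes at once. By their symbols, 44 of the 57 genes were replication-dependent genes (6 of H1, 8 of H2A, 14 of H2B, 8 of H3 and 8 of H4), 10 were variant genes and 3 were pseudogenes.

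The groups were NCI-H209 cells given a non-targeting control siRNA (siNTC), NCI-H209 cells given siRNA against TTF-1 (siTTF-1), Lu139 cells given siNTC and Lu139 cells given siTTF-1. All cells had been electroporated with the siRNA, and TTF-1 is the homeodomain transcription factor encoded by NKX2-1. With 1 array per group there are no replicates inside a line, and the siRNA effect is replicated only in that it was measured in both lines. The sources used here give neither the siRNA sequences nor the time between electroporation and harvest. The series asked which genes TTF-1 regulates in this cancer.

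Histones package DNA into nucleosomes, in which DNA is wrapped around a core of H2A, H2B, H3 and H4, while H1 binds the DNA between cores. Replication-dependent histone genes lie mostly in clusters, lack introns and are expressed in S phase. Their mRNAs end in a stem-loop bound by SLBP and not in a poly(A) tail, although some also give polyadenylated forms. Variant genes lie mostly alone in the genome, are expressed outside S phase as well, and give polyadenylated mRNAs; H2AX gives both kinds of 3′ end. Labelling that starts from an oligo-dT primer reads mainly polyadenylated RNA, so an array may read a replication-dependent gene through its less abundant form. The primer is not named in the sources used here. Cluster genes of one family have closely similar coding sequences, so a probe set for one of them can also bind transcripts of others. For that reason no intensity of one probe set is compared with that of another below.

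On the linear intensity scale, NKX2-1 was at 596 with siNTC and 243 with siTTF-1 in NCI-H209, which is 40.7% of control, and at 780 and 461 in Lu139, which is 59.1%. The mean log2 fold change was -0.98 (limma 95% confidence interval -1.31 to -0.66), with a limma adjusted p of 0.0844. The array medians lay between 48.4 and 57.7. Of 10 neuroendocrine marker genes that define this cancer type, 8 had a value, and all 8 were above the expression limit in both lines, with a summed intensity of 49924.5 and 43205.1 in NCI-H209 and of 34716.0 and 36903.2 in Lu139 (siNTC, then siTTF-1). Of 11 markers of leukocytes, fibroblasts, endothelium and other lung epithelium, 9 had a value and 7 passed the limit, with summed intensities from 890 to 1090. The leukocyte marker PTPRC and the collagen gene COL1A2 were under the limit. The 7 above it were CD3E, COL1A1, DCN, PECAM1, VWF, KRT5 and SFTPC. COL1A1 was at 259 and 298 in NCI-H209 and at 333 and 362 in Lu139. The leukocyte marker CD3E was at 77.5 and 88.6 and at 63.7 and 79.2. Whether signal at such levels reflects expression was not tested. All 7 were higher after siTTF-1 in both lines, against 37.3% of all genes tested, and their part in the results below was not tested. Less RNA per cell and fewer cells of one kind, such as cells in S phase, cannot be told apart in bulk RNA.

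To show the regulatory sequence of the genes on which the results turn, the 200 bases before the transcription start of 8 of them are printed here from the RefSeq promoter table (GRCh38.p14), 5′ to 3′ on the strand of the gene. The first 5 were chosen from the 6 replication-dependent genes with the lowest mean values after siTTF-1 (H2BC12L, the other of them, is not printed), H2BC21 is a cluster gene with opposite directions in the lines, and H2AZ1 and MACROH2A2 are variants. Capitals mark the letters CCAAT, the letters TATAAA and the octamer ATTTGCAT, each on either strand and at any position.
H2BC12 (chr6:27146859-27147058, minus strand): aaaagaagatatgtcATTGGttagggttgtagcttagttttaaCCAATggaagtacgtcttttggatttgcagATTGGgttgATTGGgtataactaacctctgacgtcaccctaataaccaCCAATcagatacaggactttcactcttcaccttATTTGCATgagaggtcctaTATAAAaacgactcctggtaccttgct
H2BC6 (chr6:26183561-26183760, plus strand): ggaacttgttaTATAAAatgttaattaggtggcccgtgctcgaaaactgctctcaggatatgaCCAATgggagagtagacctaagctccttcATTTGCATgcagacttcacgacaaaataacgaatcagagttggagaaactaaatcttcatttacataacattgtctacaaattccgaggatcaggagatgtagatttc
H2BC9 (chr6:26251414-26251613, plus strand): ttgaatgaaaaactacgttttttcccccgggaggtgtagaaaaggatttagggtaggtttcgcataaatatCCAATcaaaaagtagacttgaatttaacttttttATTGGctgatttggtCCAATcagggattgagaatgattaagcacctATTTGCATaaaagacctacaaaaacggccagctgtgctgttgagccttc
H2AC6 (chr6:26123972-26124171, plus strand): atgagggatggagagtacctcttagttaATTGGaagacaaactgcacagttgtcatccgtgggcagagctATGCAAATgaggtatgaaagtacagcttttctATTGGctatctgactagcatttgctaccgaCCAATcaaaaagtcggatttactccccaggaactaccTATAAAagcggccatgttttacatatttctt
H2AC17 (chr6:27893186-27893385, minus strand): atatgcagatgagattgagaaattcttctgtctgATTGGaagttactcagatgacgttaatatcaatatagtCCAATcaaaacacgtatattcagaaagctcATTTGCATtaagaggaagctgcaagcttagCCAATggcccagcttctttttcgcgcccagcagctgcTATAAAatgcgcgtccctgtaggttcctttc
H2BC21 (chr1:149886683-149886882, minus strand): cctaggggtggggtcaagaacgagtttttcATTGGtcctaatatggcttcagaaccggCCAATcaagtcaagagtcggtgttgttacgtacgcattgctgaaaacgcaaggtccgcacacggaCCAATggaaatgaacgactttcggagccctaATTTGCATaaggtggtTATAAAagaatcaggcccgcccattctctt
H2AZ1 (chr4:99950276-99950475, minus strand): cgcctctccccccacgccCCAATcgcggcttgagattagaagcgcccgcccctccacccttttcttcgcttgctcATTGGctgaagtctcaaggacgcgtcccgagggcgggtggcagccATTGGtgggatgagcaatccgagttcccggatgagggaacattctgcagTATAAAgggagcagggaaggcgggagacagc
MACROH2A2 (chr10:70052646-70052845, plus strand): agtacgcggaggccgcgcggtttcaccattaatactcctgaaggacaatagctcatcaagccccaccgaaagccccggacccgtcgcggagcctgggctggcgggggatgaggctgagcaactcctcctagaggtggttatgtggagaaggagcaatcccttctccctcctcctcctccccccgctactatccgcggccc

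The printed stretches of H2BC12, H2BC6, H2BC9, H2AC6, H2AC17 and H2BC21 each held the octamer, the sequence bound by the POU factors OCT1 and OCT2, and at least 1 CCAAT on either strand. H2BC9 was the 1 among those 6 with no TATAAA. In H2BC6 the TATAAA lay at the end of the stretch far from the start, before the CCAAT and the octamer. In the others of the 6 that held it, TATAAA lay after both. H2AZ1 had CCAAT and TATAAA but no octamer, and MACROH2A2 had none of the 3 motifs. Over the longer window of 250 bases before to 50 after the start, 51 of the 54 histone genes that are no pseudogenes had an entry. ATTTGCAT was in 16 of 41 replication-dependent promoters (39.0%), in 0 of 10 variant promoters and in 1.80% of all 27305 promoters in the table. Those 16 were 6 of 8 H2A and 10 of 13 H2B promoters, with 0 of the 6 H1, 7 H3 and 7 H4 promoters. TATAAA was in 28 of 41 (68.3%) and in 3 of 10, against 11.95% of all promoters. CCAAT was in 36 of 41 (87.8%) and in 7 of 10, against 35.7%. The octamer was in 8 of 17 promoters of replication-dependent genes with lower values in both lines after siTTF-1, and in 2 of 11 of the other tested ones. Since only H2A and H2B promoters held it, this contrast cannot be told apart from one between families. For TTF-1 itself, the letters CACTTGA were in 1 histone promoter and CACTCAAG in 0, against 2.56% and 0.751% of all promoters. The 4 letters CAAG, which CACTCAAG contains, were in 47 of 51, against 86.2%. A match of letters is not a measured binding site.

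After siTTF-1 the replication-dependent genes had mostly lower values in both lines, by small amounts. The lowest values were those of the H2B genes H2BC12L, H2BC9, H2BC12 and H2BC6, all but H2BC12 read by probe sets ending in _x_at. Log2 fold changes here are of siTTF-1 over siNTC on the scale log2(intensity + 18.7), which understates the change of dim genes. A gene was tested where its mean over the 4 arrays passed log2 5.80, an intensity of 37.0, which held for 41 of the 57 genes: 30 of 44 replication-dependent genes, all 10 variants and 1 of 3 pseudogenes. Of the 30, 18 (60%) were lower in both lines, 2 (6.67%) higher in both, 6 went in opposite directions and 4 had equal values on both arrays of a line. Over all 14547 genes tested, the share lower in both lines was 26.9% and the share higher in both was 37.3%. The median log2 fold change of the 30 was -0.09 in NCI-H209 and -0.12 in Lu139, against 0.01 and 0.03 for all genes. Without probe sets ending in _x_at or _s_at the medians were -0.018 and -0.064 over 21 genes, and with a limit at the 60th percentile they were -0.24 and -0.25 over 13 genes. Among all 44 replication-dependent genes, with no limit on intensity, 23 had lower and 4 had higher values in both lines, against 23.2% and 37.5% of 19775 genes.

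None of these genes passed limma over all genes: 0 histone genes and 0 genes of any kind had an adjusted p under 0.05 (0% called in either direction). At an unadjusted p under 0.05, 9 of the 41 were lower and 0 higher, where 9.25% of all genes were lower and 7.23% higher. These 9 were 8 of the 30 replication-dependent genes and 1 of the 10 variants. At an adjusted p under 0.1, where 0.268% of all genes were lower and 0.055% higher, there was again no histone gene. Limma p-values here rest on the spread of the effect between the lines, which may be technical, and on no replicate inside a line. That spread gives each gene 1 residual degree of freedom. A prior with 5.91 degrees of freedom, fitted over all genes, moderates the variance of each gene.

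**Figure D1:**
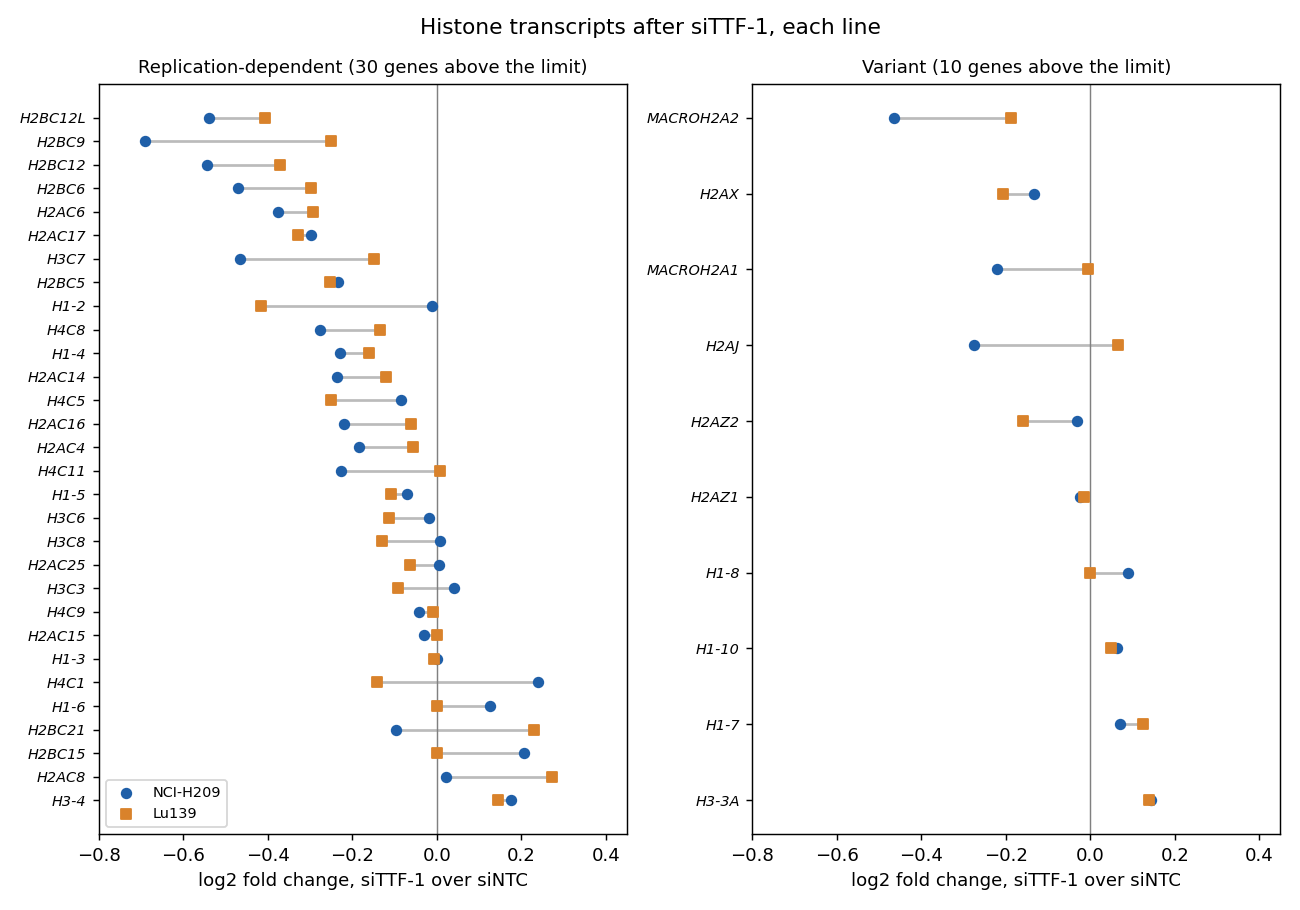
Log2 fold change of siTTF-1 over siNTC (horizontal axis) for each histone gene above the limit (rows), with circles for NCI-H209, squares for Lu139 and a line joining the values of a gene. Of 30 replication-dependent genes (left), 18 lie left of 0 in both lines and 2 right of it; of 10 variants (right), 5 lie left and 3 right.

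H2B genes encode the partner of H2A in the core, and 5 of the 7 tested were lower in both lines, against 26.9% of all genes. All 5 had an unadjusted limma p under 0.05, where 9.25% of all genes were lower. Of the 5, H2BC12L, H2BC9, H2BC6 and H2BC5 were read by probe sets ending in _x_at. Such probes can be shared between transcripts, so the 5 are not separate observations. H2BC12 had an intensity of 2975 with siNTC and 2034 with siTTF-1 in NCI-H209, and of 2004 and 1546 in Lu139. Each siTTF-1 array was below its own control, and the groups overlapped because NCI-H209 was brighter throughout. Its log2 fold changes were -0.54 and -0.37, a mean of -0.46 (limma 95% confidence interval -0.66 to -0.25, adjusted p = 0.112). Over the alternatives tried its limma adjusted p ranged from 0.0682 to 1, the last with no term for the line.

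H2BC12L, whose symbol marks it as like H2BC12 and which lies on chromosome 21, outside the clusters, was at 905 and 616 in NCI-H209 and at 604 and 451 in Lu139. It had -0.54 and -0.41, the lowest mean of the 41 genes above the limit (-0.47, limma adjusted p = 0.138). H2BC9 was at 465 and 281 in NCI-H209, 60.5% of control, and at 258 and 214 in Lu139, 83.0% of control. It was the 1 histone gene past 1.5-fold lower in NCI-H209 (-0.69), of 44 above the limit in that line, where 3.52% of all genes passed. In Lu139 its value was -0.25 (limma adjusted p = 0.182 over both lines), and 0 of 36 histone genes above the limit passed 1.5-fold lower there, against 0.936%. No histone gene was 1.5-fold higher in either line, where 1.09% of genes in NCI-H209 and 0.193% in Lu139 were.

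H2BC6 separated the arrays by siRNA: it was at 376 and 377 in the controls of NCI-H209 and Lu139 and at 266 and 303 after siTTF-1. Both siTTF-1 arrays lay below both controls, with -0.47 and -0.30 (limma adjusted p = 0.181). H2BC5 was at 596 and 504 in NCI-H209 and at 426 and 355 in Lu139, with -0.23 and -0.25 (limma adjusted p = 0.294). The remaining tested H2B genes had other values. H2BC21 was at 104 and 95.9 in NCI-H209 and at 128 and 153 in Lu139, so it was lower in one line (-0.10) and higher in the other (0.23). H2BC15, near the limit, was at 40.5 and 49.6 in NCI-H209 and at 32.4 on both Lu139 arrays. The other 7 H2B genes were under the limit: H2BC1, H2BC3, H2BC4, H2BC11, H2BC13, H2BC14 and H2BC17.

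**Figure D2:**
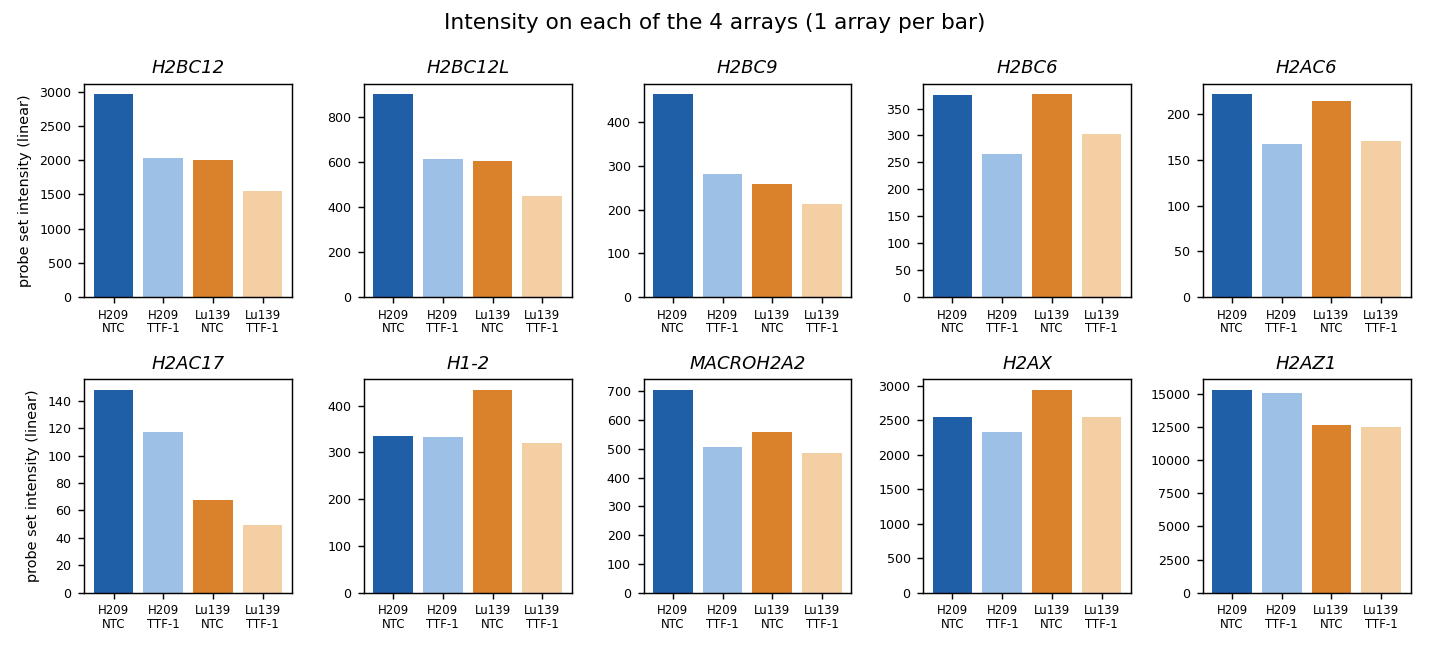
Linear probe set intensity (vertical axis, from 0) of 10 histone genes on each of the 4 arrays, 1 bar per array, with dark bars for siNTC and pale bars for siTTF-1. H2BC6 and H2AC6 show both siTTF-1 bars below both control bars, while for H2BC12 the NCI-H209 siTTF-1 bar (2034) stands at the level of the Lu139 control bar (2004), and H2AZ1 is nearly level within each line.

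All 8 replication-dependent H2A genes passed the limit, and 5 were lower and 1 higher in both lines. Beside this count and those of the families below, the shares over all genes tested were 26.9% lower and 37.3% higher. H2AC6 was at 222 and 167 in NCI-H209 and at 214 and 171 in Lu139. The controls lay above both siTTF-1 arrays, with -0.38 and -0.29 (limma 95% confidence interval of the mean -0.57 to -0.10, adjusted p = 0.201). H2AC17 was at 148 and 117 in NCI-H209 and at 67.3 and 49.8 in Lu139, with -0.30 and -0.33 (limma adjusted p = 0.193). Its siRNA difference was of like size in the lines although NCI-H209 was the brighter on all arrays. H2AC14 was at 303 and 255 and at 263 and 241, again with both siTTF-1 arrays below both controls (-0.24 and -0.12). H2AC16 and H2AC4 had -0.22 and -0.06, and -0.18 and -0.06. The gene higher in both lines was H2AC8, at 81.8 and 83.2 in NCI-H209 and at 57.0 and 72.8 in Lu139, so that its value came almost wholly from Lu139 (0.02 and 0.27, limma adjusted p = 0.488).

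Of H3, the core histone whose tail carries many regulatory marks, 5 of 8 replication-dependent genes passed the limit, with 2 lower and 1 higher in both lines. H3C7 was at 123 and 83.9 in NCI-H209 and at 22.9 and 18.8 in Lu139, so it was under the limit in Lu139. It had -0.46 and -0.15 (limma adjusted p = 0.229). H3-4, a testis-specific H3, was at 35.96 and 43.0 in NCI-H209 and at 32.4 and 37.8 in Lu139. It had 0.17 and 0.14, the highest mean among replication-dependent genes above the limit, from intensities at the limit.

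Of H4, the partner of H3, 5 of 8 genes passed the limit, with 3 lower and 0 higher in both lines. H4C8 had -0.28 and -0.14, H4C5 had -0.08 and -0.25, and H4C9 had -0.04 and -0.01. H4C1 was at 40.1 and 50.8 in NCI-H209 and at 50.6 and 44.2 in Lu139, opposite in the lines (0.24 and -0.14).

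Of the linker histone H1, 5 of 6 cluster genes passed the limit, with 3 lower and 0 higher in both lines. H1-2 was level in NCI-H209, at 335 and 332, and lower in Lu139, at 434 and 321 (-0.01 and -0.42, limma adjusted p = 0.432). H1-4 was at 107 and 88.9 in NCI-H209 and at 39.7 and 33.5 in Lu139 (-0.23 and -0.16). H1-5 had -0.07 and -0.11. H1-6, a testis-specific H1, was at 49.9 and 56.2 in NCI-H209 and at 46.1 on both Lu139 arrays.

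The variant genes had values in both directions, of which those of MACROH2A2 were the lowest. Of the 10, 5 were lower and 3 higher in both lines, against 26.9% and 37.3% of all genes. The medians of the 10 were -0.03 in NCI-H209 and -0.00 in Lu139. MACROH2A2 encodes a macroH2A, an H2A with a large globular domain that is found on silent chromatin. It was at 707 and 507 in NCI-H209 and at 558 and 487 in Lu139, with both siTTF-1 arrays below both controls. Its log2 fold changes were -0.47 and -0.19 (limma 95% confidence interval of the mean -0.59 to -0.06, adjusted p = 0.239). MACROH2A1, which encodes the other macroH2A, was at 10320 and 8858 in NCI-H209 and nearly level in Lu139, at 6779 and 6758 (-0.22 and -0.0045).

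H2AX, whose protein is phosphorylated at DNA breaks, was at 2553 and 2326 in NCI-H209 and at 2944 and 2548 in Lu139, again with both siTTF-1 arrays below both controls (-0.13 and -0.21, limma adjusted p = 0.319). H2AZ1 and H2AZ2 encode the H2A.Z forms that sit at promoters. H2AZ1 was at 15339 and 15074 in NCI-H209 and at 12642 and 12519 in Lu139, a difference of -0.03 and -0.01. The limma 95% confidence interval of its mean was -0.12 to 0.08. H2AZ2 was at 7869 and 7694 and at 3437 and 3076 (-0.03 and -0.16). H2AJ was at 842 and 692 in NCI-H209 and at 190 and 200 in Lu139, opposite in the lines (-0.28 and 0.07).

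The variants with higher values were those of H3.3 and of H1. H3-3A, which encodes the H3.3 that is deposited outside replication, was at 559 and 619 in NCI-H209 and at 107 and 120 in Lu139 (0.14 and 0.14, limma adjusted p = 0.509). H1-10 was at 2096 and 2190 and at 1940 and 2007 (0.06 and 0.05). The testis gene H1-7 was at 73.1 and 77.6 and at 63.4 and 70.8 (0.07 and 0.12). The oocyte gene H1-8 was at 48.4 and 52.8 in NCI-H209 and at 50.1 on both Lu139 arrays.

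Counting genes whose 2 siTTF-1 arrays both lay below both controls gave 4 of 30 replication-dependent genes (13.3%: H2BC6, H2AC6, H2AC14 and H1-2) and 2 of 10 variants (20%: MACROH2A2 and H2AX), against 5.09% of all genes. The median over the mean log2 fold changes of both lines was -0.12 for the 30 replication-dependent genes and -0.06 for the 10 variants. This difference between the classes was -0.06 and had no test, since genes are not replicates. It turned to 0.03 without probe sets whose identifiers end in _x_at or _s_at, where 11 of 21 replication-dependent genes (52.4%) had lower and 3 had higher values in both lines, with a median of -0.03, against 27.1% and 37.0% of all genes. Of the variants, 2 of 6 were then lower and 1 higher.

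Many histone probe sets carry these endings. An identifier ending in _s_at or _x_at marks probes shared between transcripts, and _x_at also marks probes that may bind unrelated ones. Of the 110 histone probe sets, 22 ended in _x_at and 20 in _s_at. H2BC12L, H2BC9, H2BC6 and H2BC5 were all read by an _x_at probe set. H2BC12 (209806_at) and H2AC17 (214481_at) were read by ones with neither ending, and both were lower in both lines.

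With every probe set counted on its own, 30 of the 48 replication-dependent probe sets above the limit were lower and 3 higher in both lines, against 28.3% and 34.9% of 27405 probe sets. By ending, 12 of the 15 with _x_at were lower and 0 higher, with medians of -0.28 in NCI-H209 and -0.17 in Lu139. With _s_at, 4 of 5 were lower. Of those with neither ending and read as _at, 14 of 27 were lower and 3 higher, with medians of -0.04 and -0.11. The endings do not sort all shared probes, since 207156_at is annotated to 6 genes. In that fit 209806_at of H2BC12 had a limma adjusted p of 0.0902, the lowest of any histone probe set.

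**Figure D3:**
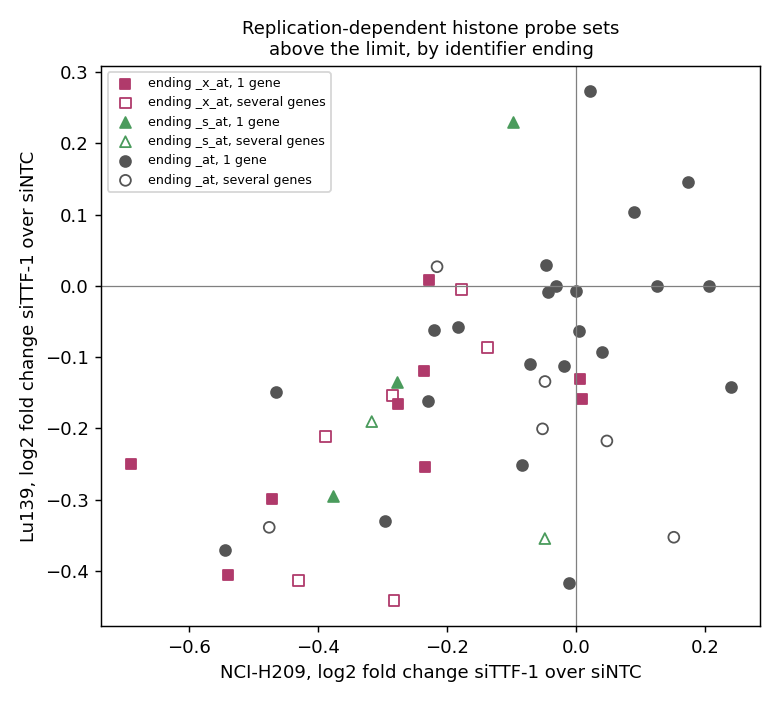
Log2 fold change of siTTF-1 over siNTC in NCI-H209 (horizontal axis) against Lu139 (vertical axis) for the 48 replication-dependent probe sets above the limit. Squares end in _x_at, triangles in _s_at and circles in _at or _a_at; open symbols are annotated to several genes. Below 0 on both axes lie 30 probe sets, 12 of them squares.

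The probe sets annotated to several genes read 46 histone genes, 24 of which had no probe set of their own. Of 14 such replication-dependent probe sets above the limit, 11 were lower and 0 higher in both lines, against 28.3% and 34.9% of all probe sets. Several of the 14 were annotated to the same genes, so they are not separate observations. For 5 H2B genes (H2BC4, H2BC6, H2BC7, H2BC8 and H2BC10), 208490_x_at was at 365 and 266 in NCI-H209 and at 297 and 219 in Lu139 (-0.43 and -0.41). A further probe set for those 5, 208523_x_at, was at 346 and 281 and at 213 and 152 (-0.28 and -0.44). For 6 H2A genes (H2AC11, H2AC12, H2AC13, H2AC15, H2AC16 and H2AC17), 207156_at was at 189 and 131 in NCI-H209 and at 117 and 88.7 in Lu139 (-0.48 and -0.34, limma adjusted p = 0.143). Each was lower in both lines. These probe sets share targets with H2BC6 and H2AC17 above and are not independent of them.

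H2AC18 and H2AC19, near-identical copies, were read by 214290_s_at at 1099 and 879 in NCI-H209 and at 1772 and 1551 in Lu139 (-0.32 and -0.19), and by 218280_x_at at 408 and 307 and at 655 and 563 (-0.39 and -0.21). The H4 genes gave small values: 205967_at, annotated to 14 of them, was at 14816 and 14330 in NCI-H209 and at 10501 and 9567 in Lu139 (-0.05 and -0.13). The probe set of H2BC8 and H2BC11, 210387_at, was at 62.3 and 71.3 in NCI-H209 and at 133 and 100.05 in Lu139, opposite in the lines (0.15 and -0.35).

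For variants, probe sets of one gene did not always have the same direction. Of the 33 above the limit, 11 were lower and 7 higher in both lines, against 28.3% and 34.9% of all probe sets. H2AZ2 had -0.52 and -0.16 on 212206_s_at but 0.14 and -0.05 on 227085_at. MACROH2A1 was lower in both lines on 207168_s_at, 214500_at and 214501_s_at (-0.31 and -0.13 on the last), and 226840_at was at 196 on both NCI-H209 arrays. H2AJ had -0.35 and -0.13 on 225245_x_at, where the probe set used above had opposite values. For H3.3, 211998_at, annotated to H3-3A and H3-3B, was at 1324 and 979 in NCI-H209 and at 1284 and 1151 in Lu139 (-0.43 and -0.16), while the other 7 probe sets annotated to several genes that include H3-3A had values between -0.11 and 0.06. Of the cluster genes, H4C8 was lower in both lines on 208180_s_at and higher in both on 232035_at (0.09 and 0.10).

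Between the lines, H3-3A, H2AJ, H3C7, H4C11, H2AZ2, H1-4 and H2AC17 had the largest differences, all lower in Lu139. Differences are of Lu139 over NCI-H209 on the log2 scale, over both siRNAs, from limma. The siNTC and siTTF-1 arrays of a line stand in for its replicates in this comparison. Its SE and p-values therefore hold no spread between cultures of a line given the same siRNA. The median over all genes was itself -0.28 on the deposited scale and 0.04 after quantile normalization over the 4 arrays, so values near these medians depend on the scaling. At an adjusted p under 0.05, 22 of the 41 tested histone genes were lower and 2 higher in Lu139, where 51.7% of all genes were called lower and 18.7% higher. After quantile normalization 12 of the 30 replication-dependent and 10 variant genes were lower and 10 higher, against 32.8% and 36.7% of all genes. The pseudogene H2AC5P was called higher as well (0.33, limma adjusted p = 0.0133). The counts for the histone genes thus lay near those for all genes on the lower side under either scaling.

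H3-3A had -2.20 (SE 0.10, adjusted p = 2.43e-06), from 559 and 619 on the NCI-H209 arrays and 107 and 120 on those of Lu139, a 4.61-fold lower value in Lu139. This rests on 213826_s_at alone. The 8 probe sets annotated to H3-3A with H3-3B were between -0.50 and 0.09, among them 200080_s_at at 15559 and 15673 in NCI-H209 and at 15760 and 15142 in Lu139. They do not show the difference of 213826_s_at. H2AJ had -1.87 (SE 0.12, adjusted p = 1.06e-05) on 224301_x_at and -2.44 on 225245_x_at, and both of these probe sets were several-fold brighter in NCI-H209. Its other probe sets were under the limit, had no test and did not show this difference. Of these, 228213_at was at 16.7 and 17.9 in NCI-H209 and brighter in Lu139, at 34.3 and 30.8. The other, 220936_s_at, was at 21.04 and 21.68 in NCI-H209 and at 21.75 and 17.33 in Lu139.

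Of the cluster genes, H3C7 had -1.61 (adjusted p = 1.02e-05). H4C11 was at 584 and 496 in NCI-H209 and at 164 and 165 in Lu139, a difference of -1.60 (SE 0.11, adjusted p = 1.44e-05). The probe set 208580_x_at, annotated to 14 H4 genes including H4C11, was at 563 and 496 and at 151 and 151, with -1.69. The others above the limit for the same 14 genes differed: 205967_at had -0.54, 214516_at had 0.07 and 207046_at had 0.32. H1-4 had -1.08 and H2AC17 -0.97, and H2AZ2 had -1.25, with -0.56 to -0.96 on its other probe sets. These 7 genes kept an adjusted p under 0.05 and their direction in every alternative in which they were tested, with H3-3A between -2.29 and -1.81 and H2AC17 between -1.07 and -0.72. H3-3A, H2AJ and H4C11 had no test without _x_at and _s_at probe sets, and H3C7 and H1-4 had none with a limit at the 60th percentile.

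The genes called higher in Lu139 were H2BC21 and H2AC25. H2BC21 had 0.42 (SE 0.11, adjusted p = 0.0122) and between 0.37 and 0.76 over the alternatives in which it was tested, all past the threshold; its 1 probe set ends in _s_at. H2AC25 was at 623 and 626 in NCI-H209 and at 903 and 863 in Lu139 on 221582_at, a difference of 0.49 (adjusted p = 0.00316). Its second probe set had -0.08, and the mean of both gave 0.20 (adjusted p = 0.0647). The paired genes H2AC18 and H2AC19 were also brighter in Lu139 on both of their probe sets, by 0.74 and 0.75. H3C6 was at 60.4 and 59.4 in NCI-H209 and at 75.8 and 68.7 in Lu139, a difference of 0.21 that did not pass (adjusted p = 0.0681). H2AX differed by probe set: 205436_s_at had 0.17, 212525_s_at had 0.37 and 213344_s_at had -1.28.

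The H2B genes that were lower after siTTF-1 were not set apart between the lines on both scales. H2BC12, H2BC12L and H2BC9 were called lower in Lu139 as deposited (-0.48, -0.50 and -0.59) but not after quantile normalization (-0.02, -0.05 and -0.14). H2BC6 had 0.09 as deposited and 0.55 after quantile normalization, where it was called higher.

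**Figure D4:**
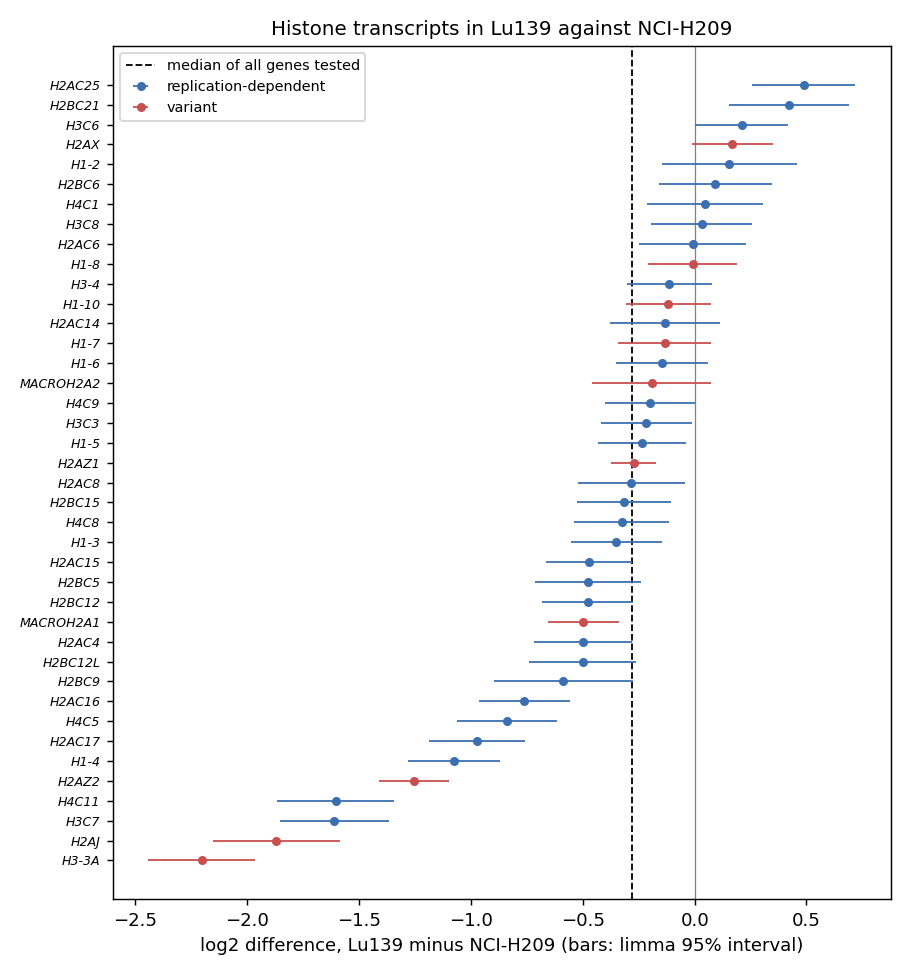
Difference of Lu139 minus NCI-H209 in mean log2 value (horizontal axis) for the 40 replication-dependent and variant histone genes above the limit (rows), with limma 95% confidence intervals; the dashed line is the median of all genes tested. H3-3A (-2.20) and H2AJ (-1.87) are lowest, and H2AC25 (0.49) and H2BC21 (0.42) highest.

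Genes of cluster transcription and 3′ processing had values in both directions after siTTF-1. Histone chaperone genes and S-phase genes were lower in both lines more often than all genes, and higher less often. Of 19 S-phase genes tested, 13 (68.4%) were lower and 0 higher in both lines, against 26.9% and 37.3% of all genes. The medians of the 19 were -0.17 in NCI-H209 and -0.07 in Lu139, and 0 had a limma adjusted p under 0.05. PCNA, the DNA polymerase clamp, was at 8765 and 7794 in NCI-H209 and at 7139 and 6728 in Lu139 (-0.17 and -0.09). MCM2, a subunit of the replicative helicase, had -0.23 and 0.01, and the S-phase cyclin gene CCNA2 had -0.13 and 0.04. The part of the number of cells in S phase in the histone values was not tested.

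Of 18 genes of cluster transcription and 3′ processing, 7 (38.9%) were lower and 8 (44.4%) higher in both lines, against 26.9% and 37.3% of all genes. Their medians were -0.02 and 0.03. NPAT, the cyclin E-CDK2 substrate that activates the clusters, was nearly level, at 553 and 547 in NCI-H209 and at 345 and 329 in Lu139. SLBP was at 2561 and 2577 and at 3764 and 3818 (0.01 and 0.02). CASP8AP2, which encodes a protein of the bodies where histone mRNA is made, was at 1321 and 1052 and at 992 and 878 (-0.32 and -0.17, limma adjusted p = 0.276). CCNE1, the cyclin E gene, was at 366 and 576 in NCI-H209 and at 420 and 481 in Lu139 (0.63 and 0.19, limma adjusted p = 0.217), and CCNE2 had 0.10 and 0.06. ERI1, named after its values were seen, encodes an exonuclease that trims and degrades histone mRNA. It was at 504 and 994 in NCI-H209 and at 364 and 479 in Lu139 (0.95 and 0.38, limma adjusted p = 0.143). ERI1 and CCNE1 were the 2 of these 18 genes past 1.5-fold higher in NCI-H209, where 1.09% of all genes were.

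Of 29 chaperone and deposition genes, 15 (51.7%) had lower and 4 (13.8%) higher values in both lines, against 26.9% and 37.3% of all genes. The medians of the 29 were -0.12 in NCI-H209 and -0.04 in Lu139. CHAF1B, a subunit of the complex that deposits H3 and H4 at replication forks, was at 339 and 247 in NCI-H209 and at 217 and 191 in Lu139 (-0.43 and -0.17). CHAF1A, another subunit, had -0.06 and 0.04. NASP, a carrier of H3 and H4, was at 1846 and 1628 and at 4408 and 3693 (-0.18 and -0.25). ASF1A had -0.09 and -0.05, and ASF1B had 0.32 and -0.04. HIRA, which deposits H3.3, was level, at 1808 and 1815 and at 1463 and 1469 (0.01 and 0.01). For the other H3.3 chaperone, DAXX had -0.27 and -0.04 and its partner ATRX had -0.12 and -0.13. CENPA, the H3 of centromeres, had 0.15 and -0.08, and its chaperone HJURP had -0.20 and 0.06. SPTY2D1, named after its values were seen, was the 1 gene of these 29 past 1.5-fold lower in NCI-H209, where 3.52% of all genes were. It was at 1308 and 723 there and at 326 and 283 in Lu139 (-0.84 and -0.19).

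**Figure D5:**
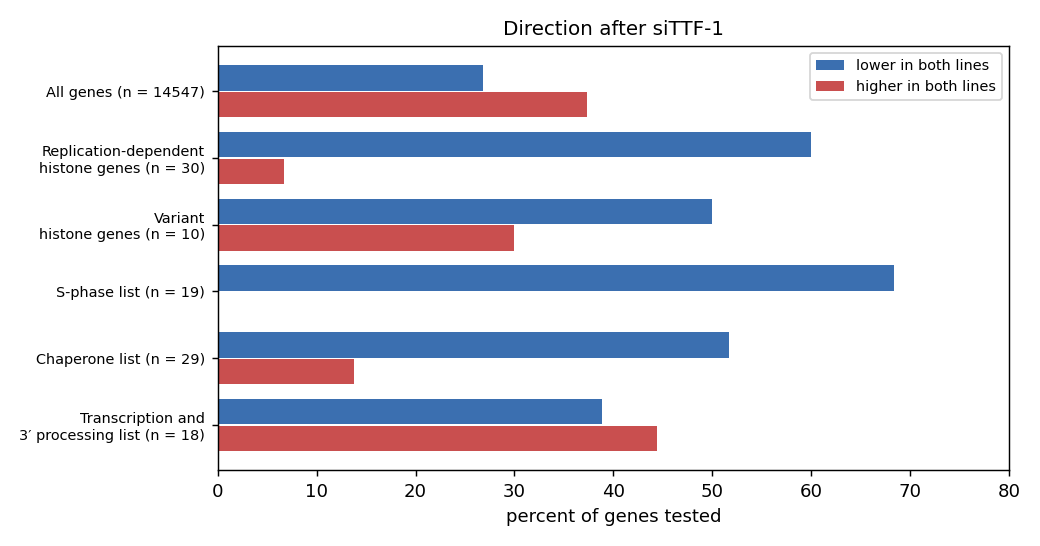
Percent of the genes tested (horizontal axis) that were lower (blue) or higher (red) after siTTF-1 in both lines, for all genes and for each class or list, with the number tested. The replication-dependent histone genes stand at 60% lower and 6.67% higher, against 26.9% and 37.3% of all genes.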

How the data were processed

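Total RNA was extracted with a column kit and made into biotinylated cRNA, per the labels' protocols. The values deposited by the authors are linear intensities, 1 per probe set and array. Per the submitters' processing notes they came from Affymetrix Expression Console; the sources used here do not give its version, the summarisation or the normalization. Exactly equal intensities were found on 2416 probe sets between the NCI-H209 arrays, 2206 between the Lu139 arrays and 0 between the control arrays of the lines, and on 3, 10 and 0 of the 110 histone probe sets. Whether the lines were scaled together is not known, so every difference between the lines depends on an unknown scaling.

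Probe sets were named through the platform's annotation, which can be old, and symbols were updated through RefSeq (GRCh38.p14). The 62 control probe sets were left out; 41091 probe sets had 1 symbol, 1801 several and 11721 none. Each gene took the value of the probe set whose mean log2 value was highest. Expression was log2(intensity + 18.7), the pseudocount being the 25th percentile of all values, and the limit was the 40th percentile of the mean log2 values. The model had terms for line and siRNA, 1 residual and 5.91 prior degrees of freedom, in limma 3.58.1 (R 4.3.3), with a trend of the variance and two-sided p-values adjusted by Benjamini-Hochberg over 14547 genes. The line is the block. Within a line, differences have a size and no test. With 4 arrays, their number limits the precision. Figures used matplotlib 3.10.9.

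Classes followed the gene symbols, also for H2BC12L, which lies outside the clusters and whose class is in doubt. Genes named were every variant, the 6 lowest and 6 highest replication-dependent genes, the 6 brightest in each line, the 6 with the largest line differences each way, those past 1.5-fold, and listed chaperone, processing and S-phase genes; others were named after their values were seen. The members and lists were chosen with earlier results of these data known. Alternatives were other pseudocounts, limits, scalings, probe set rules, variance priors and model terms.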

Additional observations from a re-analysis of the deposited data

Results flagged for a closer look

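Each of these histone transcripts had opposite directions after siTTF-1 in the lines, by at least 0.05 on the log2 scale in each; with 1 array per group, how far the lines differ could not be tested. Values are the log2 fold change in Lu139 minus that in NCI-H209. H2BC21 had 0.33 (-0.10 in NCI-H209 and 0.23 in Lu139). H2AJ had 0.34 (-0.28 and 0.07), while its probe set 225245_x_at was lower in both lines. H4C1 had -0.38 (0.24 and -0.14), from intensities between 40.1 and 50.8. The pseudogene H2AC5P had 0.19 (-0.11 and 0.08). The probe set 210387_at, annotated to H2BC8 and H2BC11, had -0.50 (0.15 and -0.35).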

How the results depend on the processing

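Counts of 0 histone genes at an adjusted p under 0.05 after siTTF-1 held in all alternatives run for it. Without _x_at and _s_at probe sets, 0 histone genes were 1.5-fold lower in NCI-H209 (1 as reported). In both lines 11 of 21 replication-dependent genes were lower (18 of 30), and 2 of 6 variants were lower (5 of 10) and 1 higher (3). The replication-dependent median was -0.029 (-0.12), the class difference 0.034 (-0.06) and 1 gene was called higher in Lu139 (2). With a limit at the 60th percentile, 9 of 13 replication-dependent genes were lower and 0 higher, against 31.2% and 34.9% of all genes. The medians were -0.24 and, for variants, -0.10, a class difference of -0.14. At that limit 11 genes were called lower in Lu139 (22). These were 6 of 13 replication-dependent genes and 5 of 8 variants, against 56.1% of all genes. With no limit, 4 of 44 replication-dependent genes were higher (2 of 30) and the median of the 44 was -0.090. Counted by probe set, 30 of 48 replication-dependent ones were lower, 11 of 33 variant ones were lower and 7 higher, and the variant median was -0.024 (-0.06). Of 82 histone probe sets tested, 40 (48.8%) were called lower and 8 (9.76%) higher in Lu139, against 50.7% and 19.1% of all probe sets. With the mean of all probe sets the variant median was -0.038 and 1 gene was called higher in Lu139. Without H2AX the variant median was -0.020 and the class difference -0.10. In NCI-H209 alone the class medians were -0.091 and -0.029, and in Lu139 alone the variant median was -0.0023. Replication-dependent genes higher in both lines numbered 1 with a doubled pseudocount and 1 without testis-specific genes.

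Quantile normalization over the 4 arrays gave 12 genes called lower and 10 higher in Lu139, pseudogenes not counted. It turned the line difference of H1-10 to 0.35, H1-6 to 0.012, H1-7 to 0.085, H1-8 to 0.15, H2AC6 to 0.41, H3-4 to 0.015 and MACROH2A2 to 0.27. The mean of all probe sets turned it for H1-7 (0.12) and H2AX (-0.22). The siTTF-1 value of H2AC25 was 0.0052 with quantile normalization over the 4 arrays and 0.0056 with it within each line. The cause was not tested for any of these. With no line term (no replicate block), H2BC12 had an adjusted p of 1. Without H2BC12L, an alternative chosen after seeing the data, 17 of 29 replication-dependent genes were lower in both lines, with a median of -0.11. In all, 166 summary values stayed within a set tolerance of the reported one, 31 moved beyond it and 1, the class difference, changed sign. Of the single-gene values, 465 kept their sign and their call and 11 changed sign. A further 8 single-gene calls were lost and 4 gained, all of these calls being of the line difference. With 1 array per group, values within a line carry no error, and dim probe sets limit 14 replication-dependent genes to counts.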
